A study of Mus musculus with 160 samples.

Results

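The immunoglobulin variable (V) segments were followed in RNA-seq counts from the distal colon of 160 mice. They were taken as the genes whose mouse symbol begins with Ighv, Igkv or Iglv and a digit, whose annotated biotype is a functional V gene and whose counts sum to at least 10 over all libraries. This gave 197 of the 39179 genes counted, of which 99 are heavy chain (Ighv), 95 kappa light chain (Igkv) and 3 lambda light chain (Iglv) segments. A further 9 functional V genes fell below the minimum, and the choice used no difference between groups. The mice belonged to 4 lines, each with homozygous knockout and wild-type animals: Dok3 with 26 knockout and 21 wild-type libraries, Gpsm3 with 20 of each, Dock2 with 18 and 24, and Nckap1l, named HEM1 in the labels, with 16 and 15. The Nckap1l, Dock2 and Gpsm3 mice are labelled strain C57BL6/J and the Dok3 mice strain 129, although the methods state that the founders of the lines were re-derived with C57BL6/J females and kept by heterozygote crosses, with genotypes housed together. All Gpsm3 and Dok3 mice are labelled male, whereas 4 Nckap1l knockout, 8 Nckap1l wild-type, 8 Dock2 knockout and 12 Dock2 wild-type mice are female. Dextran sulfate sodium (DSS), a polymer that injures the colonic epithelium, was given for 5 days at 3% in the Dock2 and Gpsm3 lines and 3.5% in the Dok3 line, with no dose in the labels for the Nckap1l line, and tissue was collected on day 10, or day 12 in the Nckap1l line. The methods state a lower dose than in the other lines for the Nckap1l line, and that the first round of the Dok3 line received 3%, and the labels do not tell the rounds apart. The labels do not say which mice received DSS, so treated and untreated mice stand together in every group.

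An antibody chain is assembled in a developing B cell by joining a V segment to a J segment, with a D segment between them in the heavy chain, so each B cell and its descendants transcribe a rearranged V segment upstream of a constant region. The V segment encodes most of the antigen-binding domain, and the choice of V, D and J together with junctional diversity makes the repertoire. In the colon most antibody RNA comes from plasma cells of the lamina propria that secrete IgA, and a plasma cell carries far more immunoglobulin RNA than a resting B cell. A count on a V segment therefore weights a cell by its output, and in whole tissue fewer cells and less RNA per cell cannot be told apart.

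V segments took 622865 counts in all, or 0.0251% of the counts on genes, with 21 to 51678 V counts per library at 4344988 to 19993833 total counts. Levels are given as CPM, counts scaled to the total of the library, usage is a segment's percentage of the V counts of its library, and intervals cover counting error only. Of the 160 libraries, 151 held at least 100 V counts and 98 at least 1000. The knocked-out genes themselves overlapped between genotypes in every line, at 4.66 to 69.9 CPM in Nckap1l knockout against 13.7 to 133.9 in wild type, 12.6 to 45.4 against 15.2 to 70.4 for Dock2, 0.238 to 3.47 against 0.731 to 7.90 for Gpsm3 and 1.02 to 38.0 against 1.16 to 26.03 for Dok3, so knockout and wild type here mean the labelled genotype. In the Gpsm3 line 3 libraries had a Gpsm3 level on the other side of 1.5 CPM from their label, and 5 libraries of the Dok3 line had sex marker genes that went against theirs. B cell genes and the constant regions Igkc, Ighm and Igha were detected alongside the V segments, and genes of colon epithelium had a median summed level of 6413 to 9132 CPM in the 8 groups. Markers of skin keratinocytes and striated muscle reached 13130 and 7885 CPM in single libraries, and in the Nckap1l line their medians were 797.1 and 113.1 CPM in wild type and 9.11 and 157.6 CPM in knockout.

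The last 60 bases of the V exon of 7 segments are shown because these segments were the most used or differed between genotypes. The sequences are those of the GRCm38 reference in the GENCODE M21 transcripts, which come from C57BL/6J, and so do not give 129 alleles. Capitals mark the codon of the second conserved cysteine, after which the third complementarity-determining region begins.
Igkv1-117: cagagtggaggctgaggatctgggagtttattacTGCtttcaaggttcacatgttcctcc
Igkv10-96: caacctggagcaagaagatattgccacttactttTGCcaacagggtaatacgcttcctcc
Igkv1-110: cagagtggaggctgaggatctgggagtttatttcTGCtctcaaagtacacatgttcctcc
Ighv6-3: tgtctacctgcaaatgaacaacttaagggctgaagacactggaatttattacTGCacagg
Ighv1-53: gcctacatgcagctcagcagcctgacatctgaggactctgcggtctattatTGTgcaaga
Igkv4-72: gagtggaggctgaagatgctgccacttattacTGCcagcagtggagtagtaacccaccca
Ighv3-6: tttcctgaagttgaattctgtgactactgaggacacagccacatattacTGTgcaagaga

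The cysteine codon began at base 35 of the window and was followed by 23 bases in each of the 3 leading kappa segments, whereas 5 to 8 bases followed it in Ighv6-3, Ighv1-53 and Ighv3-6, whose junction is completed by D and J segments. Igkv1-117 and Igkv1-110 lie on the plus strand of chromosome 6 (chr6:68121046-68121827 and chr6:68270485-68271267), and Igkv10-96 (chr6:68631963-68632442) and Igkv4-72 (chr6:69226854-69227433) on its minus strand. Ighv6-3 (chr12:114391712-114392169), Ighv1-53 (chr12:115158403-115158835) and Ighv3-6 (chr12:114288152-114288582) lie on the minus strand of chromosome 12.

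The lambda locus is small in the mouse, and its segments Iglv1 and Iglv2 are near copies. The last 300 bases of their V exons differed at 8 positions (97.3% identity), shown in capitals.
Iglv1: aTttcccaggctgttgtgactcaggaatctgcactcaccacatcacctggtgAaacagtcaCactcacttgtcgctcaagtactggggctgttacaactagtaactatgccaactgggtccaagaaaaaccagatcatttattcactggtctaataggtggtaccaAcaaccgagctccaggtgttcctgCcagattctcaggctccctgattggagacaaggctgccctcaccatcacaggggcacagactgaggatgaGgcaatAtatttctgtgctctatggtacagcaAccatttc
Iglv2: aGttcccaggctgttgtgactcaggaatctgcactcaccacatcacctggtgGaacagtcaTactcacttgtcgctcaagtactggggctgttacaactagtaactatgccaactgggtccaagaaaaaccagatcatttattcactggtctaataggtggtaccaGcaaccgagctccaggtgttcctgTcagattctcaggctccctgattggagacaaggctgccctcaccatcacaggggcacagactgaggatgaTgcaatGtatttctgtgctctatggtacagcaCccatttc

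Despite this likeness, 98.3% of the 100-base windows of Iglv1 and 98.1% of those of Iglv2 occurred in no other annotated V gene. Few reads of the length sequenced could thus match both exactly. Windows were compared among V genes of the reference only. Over all members, 119 of 197 were unique in every such window, 78 shared at least 1 window with another V gene, and 4 were unique in 50% of their windows or fewer. Of the leading kappa segments, Igkv1-117 was unique in 83.9% of its windows, Igkv1-110 in 83.8% and Igkv10-96 in 87.7%. How reads that match several genes were counted is not given in the sources used here.

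Usage was spread over many segments and led by a few kappa and lambda ones. Averaged over the 8 groups with equal weight, the 10 most used members held 25.79% of usage and 30 members held 50%. Iglv1 was the most used at 4.39%, followed by Igkv1-117 at 3.85%, Igkv10-96 at 3.35% and Igkv1-110 at 3.33%. Of the 151 libraries with at least 100 V counts, Iglv1 led 22, Igkv1-117 and Igkv10-96 led 20 each and Igkv1-110 led 15, and 46 different segments led at least 1 library. No member had a count in every library, 143 had one in at least 50% of the libraries and 7 in under 10%.

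The leading segments varied widely from mouse to mouse. Igkv1-117 usage in Dock2 wild type ran from 0.511% through a median of 3.69% to 10.8%, and in Gpsm3 knockout from 0.892% through 4.52% to 20.1%. Igkv10-96 ran from 2.41% through 4.36% to 6.91% in Nckap1l wild type and from 1.21% through 3.52% to 24.3% in Dok3 knockout. The ranges of all 8 groups overlapped for both segments, and each group's SD was large beside its mean, as in Dok3 wild type at 4.04% ± 2.93 (SD, n = 21) for Igkv1-117 and 4.86% ± 3.95 (SD, n = 21) for Igkv10-96. Iglv1 had group means from 3.06% ± 2.96 (SD, n = 16) in Nckap1l knockout to 6.12% ± 5.32 (SD, n = 18) in Dock2 knockout. The other lambda segments were lower, with mean usage of 1.58% for Iglv3 and 1.44% for Iglv2.

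The 5 most used heavy chain segments were Ighv6-3 (mean usage 2.26%), Ighv1-53 (1.83%), Ighv7-3 (1.83%), Ighv1-26 (1.63%) and Ighv3-6 (1.55%). Ighv6-3 had group means from 0.843% ± 0.909 (SD, n = 26) in Dok3 knockout to 5.98% ± 6.49 (SD, n = 16) in Nckap1l knockout, where it ran from 0 to 23.3%. Its first place rests on that group, in which 7 of 16 libraries held under 100 V counts: by counts it held 6821, against 14303 for Ighv7-3, 12147 for Ighv1-53, 11235 for Ighv3-6 and 10442 for Ighv1-26. Ighv6-3 had a count in 30 of 31 Nckap1l-line libraries, against 24 for Igkv10-96. Ighv6-4 of the same subgroup had 203 counts spread over 90 of the 113 C57BL6/J libraries. A low count present in most libraries makes a larger share where V counts are few, and whether these reads came from rearranged segments was not tested. Ighv1, the largest heavy chain subgroup with 48 members, held a mean of 18.98% to 24.6% of V counts in the 8 groups. The largest kappa subgroup, Igkv4 with 26 members, held 4.80% to 9.64%, and the 8 members of Igkv1 held 7.5% to 10.8%. The Igkv1 subgroup thus took a share like that of Igkv4 with fewer segments.

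Use did not follow distance from the J segments in a simple order. The Ighv members span 148.7 to 2570 kb from the first J segment, and when they were cut by distance into 3 parts of 33, the middle part held the highest mean share of heavy chain V counts in 6 of the 8 groups, at 36.9% to 47.8% over all 8. Along the Igkv locus, which spans 18.4 to 3166 kb, the farthest 31 members held a mean of 41.0% to 51.5% of kappa V counts, more than either of the nearer parts in every group. Igkv1-117, Igkv1-110, Igkv1-135 and Igkv10-96 all lie in that part, at 2601, 2451, 3112 and 2090 kb. Kappa segments on the strand opposite to J, which join by inversion, made up 59 of the 95 members and held 52.8% to 63.5% of kappa V counts.

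**Figure D1:**
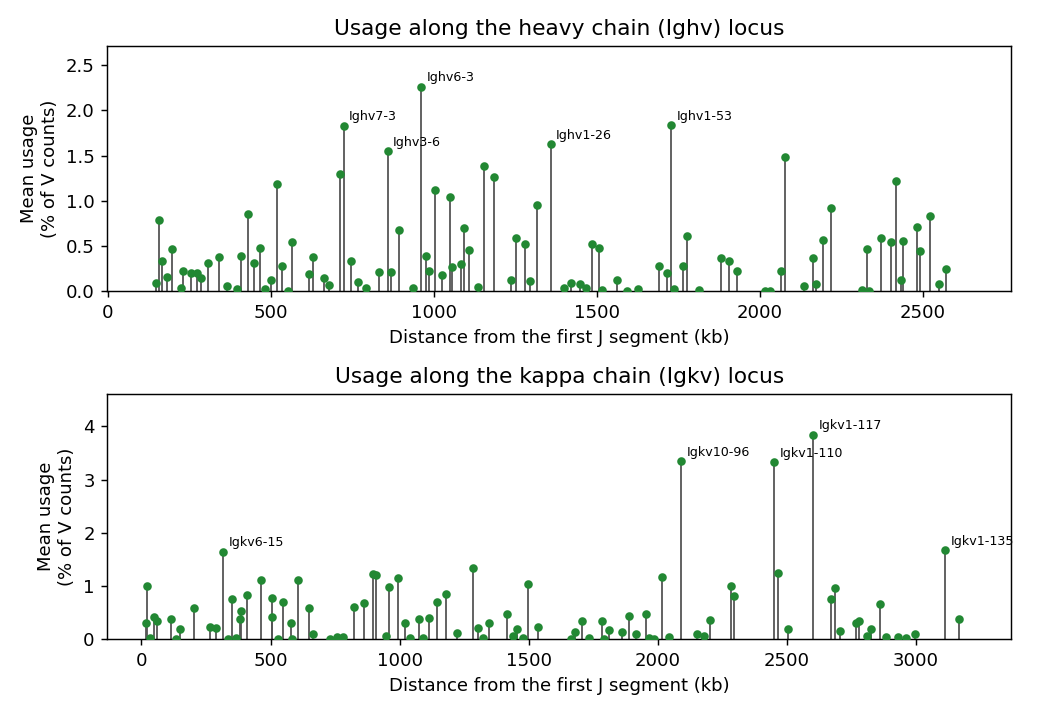
Mean usage of each Ighv and Igkv member (y axis, percent of the V counts of a library, mean of the 8 groups) against its distance from the first J segment (x axis, kb), with the 5 most used of each locus named. Each stem is 1 segment: use is scattered along the heavy chain locus, and the tallest kappa stems (Igkv1-117, Igkv10-96 and Igkv1-110) stand at 2090 to 2601 kb.

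The summed V level ran from 1.27 to 3290 CPM over the libraries. In the Nckap1l line it ran from 4.93 through a median of 53.8 to 3290 CPM in wild type and from 1.27 through 6.95 to 251.8 CPM in knockout. In the Dock2 line it ran from 12.4 through 119.8 to 741.0 CPM in wild type and from 16.1 through 45.8 to 378.5 CPM in knockout, where 17 of 18 libraries were below the wild-type median. In both lines the knockout median was lower and the ranges overlapped.

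In the Gpsm3 line the summed V level ran from 3.43 through 82.6 to 462.9 CPM in wild type and from 16.5 through 135.1 to 735.9 CPM in knockout, the highest of which falls to 539.1 CPM without the libraries against their Gpsm3 label. In the Dok3 line it ran from 17.99 through 396.5 to 1523 CPM in wild type and from 24.5 through 550.0 to 1254 CPM in knockout. The knockout median was the higher of the pair in both lines, but it was the lower in the first run of sample numbers of each. In the Gpsm3 line the medians were 50.3 CPM in knockout and 74.9 in wild type in the first run and 156.7 and 96.7 in the second. In the Dok3 line they were 398.8 and 496.3 CPM in the first run and 582.0 and 286.7 in the second.

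For the lines with the lower knockout median, the Dock2 difference held in both sexes, with medians of 64.0 CPM in knockout and 135.9 in wild-type females and 33.2 and 115.2 in males, and its sample numbers form a single run. The Nckap1l difference held in both sexes and in 2 of 3 runs of sample numbers. In females of that line the medians were 6.95 CPM in knockout and 50.04 in wild type, and in males 9.03 and 53.8. In its runs they were 2.88 and 32.1, 64.6 and 61.0, and 9.58 and 265.6 CPM, so that the run between the others showed no lower level in knockout. Leaving out the libraries against their labels gave medians of 135.1 CPM in Gpsm3 knockout and 78.4 in wild type, and of 572.9 and 396.5 in the Dok3 line.

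**Figure D2:**
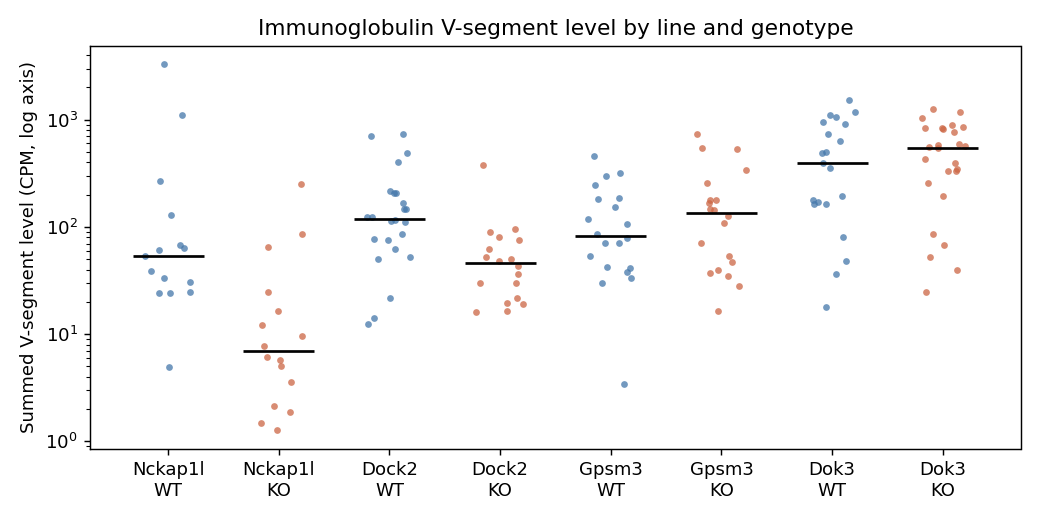
Summed level of the 197 V segments (y axis, CPM on a log axis) in each library of the 8 groups (x axis), with blue points for wild type, orange points for knockout and a black bar at the median. The medians of the Dok3 line, 396.5 and 550.0 CPM, are the highest, and that of Nckap1l knockout, 6.95 CPM, is the lowest, with ranges that overlap between genotypes in every line.

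Outside Nckap1l knockout, the split of V counts between chains was steady beside this range of levels. In that group 7 of 16 libraries held under 100 V counts. Heavy chain segments held a mean of 40.1% ± 2.4 (SD, n = 26) of V counts in Dok3 knockout and 49.3% ± 9.6 (SD, n = 16) in Nckap1l knockout, the lowest and the highest group. Among light chain V counts the kappa share had means from 82.3% ± 20.7 (SD, n = 16) in Nckap1l knockout to 91.9% ± 4.0 (SD, n = 26) in Dok3 knockout. Single libraries of Nckap1l knockout ran from 10.0% to 96.15%. In the Dock2 line the kappa share was 82.5% ± 10.2 (SD, n = 18) in knockout and 86.5% ± 7.2 (SD, n = 24) in wild type, a difference of -3.99 percentage points with an SE of 2.81. The lambda constant region Iglc2 held a median of 8.15% of light constant counts (Igkc and Iglc2) in Dock2 knockout and 2.93% in wild type, where 2 of 18 knockout libraries were below the wild-type median. The level of Iglc2 itself had the lower median in knockout, 1.90 CPM against 2.785. Mean usage in Dock2 knockout and wild type was 1.81% and 0.70% for Iglv2, 2.10% and 1.52% for Iglv3, and 6.12% and 5.56% for Iglv1. Outside Nckap1l knockout, V counts stood beside constant region counts in a like proportion. Group means there were 139.9 to 159.1 V counts per 100 light constant counts. In Nckap1l knockout the mean was 194.2 ± 111.0 (SD, n = 16), with libraries from 114.0 to 583.3.

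Diversity was measured as the effective number of segments, the number of equally used segments that would give the same Shannon entropy, after every library was thinned to 1000 V counts. It was 66.6 ± 13.7 (SD, n = 6) in Nckap1l wild type, 51.4 ± 14.4 (SD, n = 18) in Dock2 wild type, 53.9 ± 19.8 (SD, n = 14) in Gpsm3 wild type and 64.0 ± 13.9 (SD, n = 17) in Dok3 wild type. In knockouts it was 82.1 ± 5.9 (SD, n = 3) in the Nckap1l line, 44.0 ± 16.9 (SD, n = 5) in Dock2, 47.3 ± 18.98 (SD, n = 13) in Gpsm3 and 64.1 ± 17.1 (SD, n = 22) in Dok3. The ranges overlapped between genotypes in each line, and libraries under 1000 V counts were left out, which removed 13 of 16 Nckap1l knockout and 13 of 18 Dock2 knockout libraries. At 100 V counts, where 9 Nckap1l knockout libraries remained, the effective number was 33.9 in that group and 42.1 in its wild type, the opposite order to that at 1000, and 33.5 and 34.7 in the Dock2 line.

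**Figure D3:**
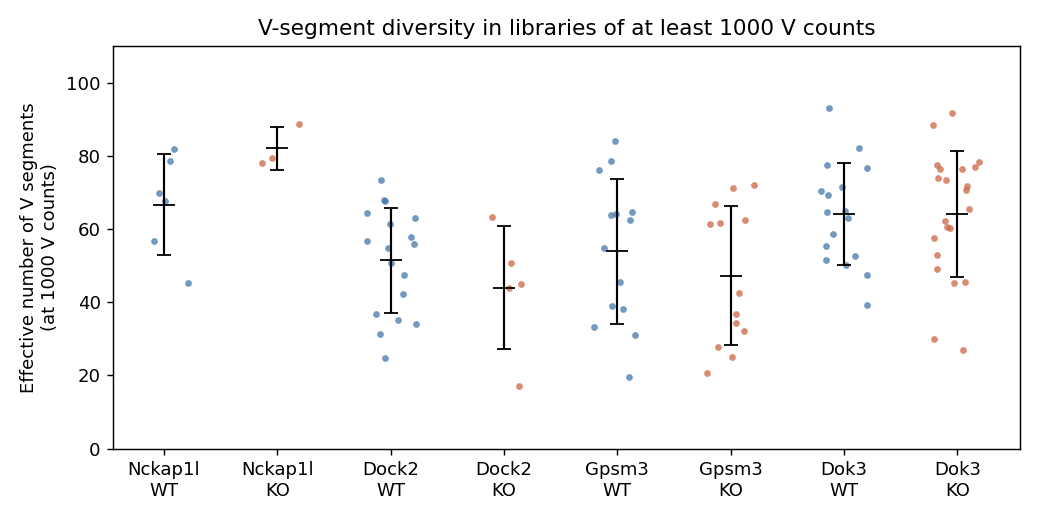
Effective number of V segments (y axis, exponential of the Shannon entropy at 1000 V counts) in each library of at least 1000 V counts, by group (x axis), with blue points for wild type, orange for knockout, and black bars for the mean and 1 SD. Points of the 2 genotypes overlap in each line, and Nckap1l knockout rests on 3 libraries.

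Single segments dominated some libraries. Among the 151 libraries with at least 100 V counts, a segment held 10% or more of V counts in 55 and 20% or more in 13. The highest share was Ighv1-12 in Nckap1l knockout replicate 13, at 44.7% of 423 V counts (95% Wilson interval 40.0 to 49.5%). Igkv12-89 held 30.9% (27.0 to 35.1%) of 502 V counts in Dock2 knockout replicate 1, and Ighv5-17 held 27.3% (25.8 to 28.9%) of 3058 in Gpsm3 knockout replicate 18. Such shares were also seen at depth, with Igkv10-96 at 24.3% (23.8 to 24.9%) of 19954 V counts in Dok3 knockout replicate 19 and Igkv1-117 at 20.1% (19.4 to 20.8%) of 12848 in the library labelled Gpsm3 knockout replicate 1, whose Gpsm3 level goes against its label. These segments were named after their values were seen, apart from Igkv10-96, Igkv1-117 and Ighv5-17.

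Pooled over lines, the overlap in usage was of like size within and between lines. The usage that a pair of libraries shared, at 1000 V counts, had a median of 46.1% (19.7 to 67.7%) for pairs of the same line and genotype, 45.8% for the same line and other genotype, 43.1% for pairs from different C57BL6/J lines and 44.3% for a Dok3 library with a C57BL6/J one. Of the 717 pairs of the same line and genotype, 367 were Dok3 pairs. By line the median for such pairs was 48.9% in Dok3, 51.5% in Nckap1l (18 pairs), 42.9% in Dock2 and 41.3% in Gpsm3. Pairs share libraries, so these are descriptions.

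In the Nckap1l line, whose targeted gene encodes a haematopoietic subunit of the WAVE complex that drives actin branching, 7 of the 197 members passed the filter on low counts, and the other 190 did not, so that counts over the 7 are a description. No gene of 17947 passed the threshold of edgeR's quasi-likelihood test with Benjamini-Hochberg adjustment (0.0% of genes), against 807 at an unadjusted p under 0.05, 21 genes by DESeq2 and 0 by limma-voom. All 7 members had a lower level in knockout, 5 of them at an unadjusted p under 0.05 where 2.35% of genes were. DESeq2 called 3 of the 7, where it called 0.0501% of genes lower. Because members could pass the filter through wild type, where levels were higher, these counts do not test direction.

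Igkv10-96, which had the smallest p of the members tested, ran from 0 through 0.060 to 6.87 CPM in Nckap1l knockout, with a count in 9 of 16 libraries. In wild type it ran from 0.119 through 2.11 to 227.4 CPM, with a count in 15 of 15. The log2 fold change was -3.82 (SE 1.28, p = 0.00546, adjusted p = 0.889 by edgeR). Ighv1-53 had a log2 fold change of -3.22 (SE 1.18, adjusted p = 1.00 by edgeR) with medians of 0.089 and 1.16 CPM, and Iglv3 of -2.39 (SE 0.91, adjusted p = 1.00) with medians of 0.121 and 0.977 CPM. The genotypes overlapped for each of these 3 segments.

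The usage of Igkv10-96 was 1.26% ± 1.84 (SD, n = 16) in Nckap1l knockout and 4.61% ± 1.47 (SD, n = 15) in wild type. These means weight libraries equally, and 7 of 16 knockout libraries held under 100 V counts, the lowest 21, where a few counts set a usage. In the same groups the Ighv6 subgroup held a mean of 12.05% and 3.40%, so a drop particular to Igkv10-96 is not shown. For Igkv10-96 the log2 difference with the V total as the library size was -2.24. With that library size 99.7% of all genes passed, since nearly every other gene rises against the lower V total, so no adjusted p is read from it. The other genes of the B lineage had lower fitted levels as well: all 10 B cell identity genes tested were lower at an unadjusted p under 0.05, with a median log2 fold change of -2.27 and none past the adjusted threshold, where the summed level ran from 3.69 to 127.4 CPM in knockout and 4.22 to 477.7 in wild type. The fitted changes of the constant regions were -2.53 for Igkc, -1.52 for Ighm and -2.53 for Igha, with adjusted p of 1.00 for each. The part of the skin and muscle markers of this line in these values was not tested.

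In the Dock2 line, whose targeted gene encodes a guanine nucleotide exchange factor for Rac that lymphocytes need to migrate, 29 members were tested and 168 did not pass the filter. Igkv4-72 and Ighv3-6 were past the adjusted threshold, both lower in knockout, where 0.0283% of the 17648 genes tested were called lower. Of the 29 members, 27 had a negative fold change, 23 were lower at an unadjusted p under 0.05 where 2.75% of genes were, and the median log2 fold change was -1.95. Members could pass the filter through wild type, where levels were higher, so counts over the 29 are a description.

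Igkv4-72, a kappa segment of the Igkv4 subgroup whose 3′ end is given above, ran from 0 through 0.098 to 1.995 CPM in Dock2 knockout, with a count in 12 of 18 libraries. In wild type it ran from 0.101 through 1.32 to 12.2 CPM, with a count in 24 of 24. Its log2 fold change was -3.43 (SE 0.63, adjusted p = 0.0127 by edgeR). Knockout libraries were mostly low and wild-type libraries spread upwards, with overlap between 0.101 and 1.995 CPM. Within females the medians were 0.432 CPM in knockout and 1.37 in wild type, and within males 0.062 and 1.32.

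Ighv3-6, a heavy chain segment of the small Ighv3 subgroup, ran from 0 through 0.211 to 1.196 CPM in Dock2 knockout, with a count in 16 of 18 libraries. In wild type it ran from 0.062 through 0.803 to 10.5 CPM, with a count in 24 of 24. The log2 fold change was -3.14 (SE 0.58, adjusted p = 0.0127 by edgeR), with overlap of the genotypes between 0.062 and 1.196 CPM. The medians were 0.192 and 1.04 CPM in females and 0.215 and 0.718 in males.

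**Figure D4:**
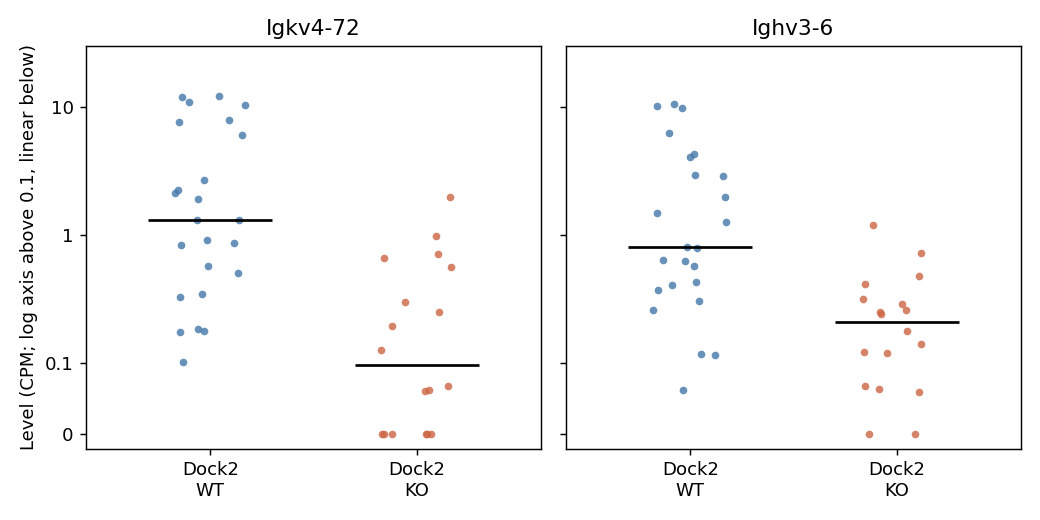
Level of Igkv4-72 and Ighv3-6 (y axis, CPM, on a log axis above 0.1 and linear below) in each Dock2-line library, with blue points for wild type, orange for knockout and a black bar at the median. The knockout medians are 0.098 and 0.211 CPM against 1.32 and 0.803 CPM in wild type, and the ranges overlap.

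Both calls were lost per V count, where the log2 fold changes were -1.90 for Igkv4-72 and -1.14 for Ighv3-6 and 0 of the 29 members passed, and with limma-voom, where they were -3.24 and -2.43. DESeq2 called 15 of the 29 members, all lower, where it called 0.368% of genes lower, and both calls held without the library of most V counts. Igkc had a log2 fold change of -1.65 (SE 0.43, adjusted p = 0.185) and Igha of -2.10 (SE 0.56, adjusted p = 0.190) by edgeR, whereas Ighm was at -0.04 (SE 0.19). All 10 B cell identity genes were lower at an unadjusted p under 0.05 and 1 past the adjusted threshold, with a median of -0.90, and of 7 plasma cell genes tested 4 were lower at the unadjusted and 1 at the adjusted p. Striated muscle markers had a median log2 fold change of -1.74 in this line, with 2 of 5 tested lower at an unadjusted p under 0.05 and summed levels of 9.01 to 402.7 CPM in knockout and 11.1 to 4236 CPM in wild type, and their part in the result was not tested.

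In the Gpsm3 line, whose targeted gene encodes a regulator of heterotrimeric G protein signalling found in leukocytes, 39 members were tested and none passed the adjusted threshold, with 1 gene of 17560 called (0.00569%), Gpsm3 itself. At an unadjusted p under 0.05, 13 members were higher in knockout where 3.35% of genes were, and 1 was lower where 1.51% were, and DESeq2 and limma-voom called 0 members. By limma-voom 2 members were higher at the unadjusted p. Without the library of most V counts, Gpsm3 knockout replicate 1, 6 of 33 were higher where 4.15% of genes were and 2 were lower where 1.61% were. Without the 3 libraries whose Gpsm3 level went against the label, 35 members were tested and 0 called, with 7 higher at the unadjusted p where 3.23% of genes were and 2 lower where 1.66% were.

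The segments with the smallest p in each direction had medians that were close between genotypes. Ighv9-3 had a log2 fold change of 2.08 (SE 0.61, adjusted p = 0.936 by edgeR) while its medians were 0.723 CPM in knockout and 0.735 in wild type and its highest libraries 47.4 and 4.46 CPM. Igkv10-94 had one of 2.09 (SE 0.66) with medians of 0.636 and 0.561 CPM and maxima of 45.6 and 3.86 CPM. Ighv1-9 had one of 1.84 (SE 0.59) with medians of 0.685 and 0.614 CPM. The highest library of each was a knockout.

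In the other direction Igkv5-48 had a log2 fold change of -1.56 (SE 0.71, adjusted p = 0.936 by edgeR), with medians of 0.811 CPM in knockout and 0.746 in wild type and a wild-type maximum of 80.0 CPM. Ighv7-3 was at -0.97 (SE 0.75), with medians of 1.08 and 1.04 CPM, and Igkv12-44 at -0.52 (SE 0.44), with medians of 0.749 and 0.975 CPM. DESeq2 gave the opposite sign for Igkv5-48 and Ighv7-3, at 0.78 and 0.87. The genotypes overlapped for all 6 segments.

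In the Dok3 line, whose targeted gene encodes an adaptor protein that restrains signalling in B and myeloid cells, V counts were highest and 111 members could be tested. None of the 17612 genes passed (0.0%), against 386 at an unadjusted p under 0.05, 3 by DESeq2 and 0 by limma-voom. Of the members, 5 were higher in knockout at the unadjusted p where 1.06% of genes were and 6 were lower where 1.14% were. The median log2 fold change of the 111 members was 0.19.

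Ighv5-17 ran from 0 through 2.25 to 63.9 CPM in Dok3 knockout and from 0 through 0.913 to 3.32 CPM in wild type, a log2 fold change of 2.15 (SE 0.53, p = 0.000202, adjusted p = 0.713 by edgeR). Igkv8-24 had one of 2.06 (SE 0.68), with medians of 2.23 and 1.55 CPM, and Ighv9-4 one of 2.09 (SE 0.71), with medians of 0.654 and 0.524 CPM. Lower in the fit were Ighv1-74 at -2.10 (SE 0.60), Ighv1-22 at -1.70 (SE 0.56) and Ighv4-1 at -1.68 (SE 0.59), the last with the higher median in knockout, 1.73 CPM against 0.909. All 6 overlapped between genotypes, and adjusted p was 1.00 for the 5 other than Ighv5-17.

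Wild-type mice of the Dok3 line, all labelled male, were also compared with those of the Gpsm3 line, which were collected on the same day but differ in strain, line, DSS dose and run of sample numbers, so these cannot be told apart. Of 74 members tested, 52 were called and all 52 were higher in the Dok3 line, where 14.3% of the 17589 genes tested were called higher. The members' median log2 difference was 1.87. Without the 2 Dok3 wild-type libraries whose sex markers went against the label, 42 of 63 members were called, all higher. In that fit 2829 of the 17488 genes tested were called higher, and 28.54% of genes were called in either direction. Members could pass the filter through the Dok3 line, where levels were higher, so counts over the 74 are a description. Of 10 B cell identity genes 3 were called higher, of 7 plasma cell genes 5, and of 8 colon epithelium genes 4 lower, where 11.8% of genes were called lower, while striated muscle markers had a median log2 difference of 2.35 with 0 of 5 called, and their part in the result was not tested.

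Among members past the threshold with a mean of at least 1 CPM, the largest differences were those of Igkv8-21 and Ighv8-12. Igkv8-21 ran from 0 through 3.85 to 33.3 CPM in the Dok3 line and from 0 through 0.264 to 4.43 CPM in the Gpsm3 line, a log2 difference of 3.53 (SE 0.65, adjusted p = 0.000155 by edgeR). Ighv8-12 ran from 0.120 through 4.38 to 33.9 CPM and from 0.053 through 0.512 to 3.96 CPM, a log2 difference of 3.46 (SE 0.60, adjusted p = 6.5e-05 by edgeR). Both were high in many Dok3-line libraries and overlapped with the Gpsm3 line. Igkv15-103 was higher by 3.46 (SE 0.65), Ighv3-8 by 3.34 (SE 0.68) and Igkv10-94 by 3.26 (SE 0.64).

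With the V total as the library size 82.6% of all genes passed because of the shift in the V total, so the adjusted threshold hardly corrects there, and the values are a description. The log2 difference on that scale was 1.44 for Igkv8-21, 1.38 for Ighv8-12, 1.37 for Ighv3-8 and 1.34 for Igkv15-103. It was -1.72 for Ighv5-17, -1.62 for Ighv4-1 and -1.50 for Ighv1-26. Usage of Ighv1-26 was 0.971% ± 1.05 (SD, n = 21) in Dok3 wild type and 2.82% ± 2.18 (SD, n = 20) in Gpsm3 wild type. Of the 74 members, 32 were higher and 42 lower in the Dok3 line on that scale, with a median of -0.078. With male Dock2-line wild types as the reference 25 of 96 members were called, where 2.25% of genes were called higher, and with the runs of nearest sample numbers 31 of 84, where 2.54% were, all of these members higher in the Dok3 line.

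Some heavy chain segments were counted almost entirely in the Dok3 line. They are Ighv7-2, Ighv8-13, Ighv1-16 and Ighv8-11, named after their values were seen and given as a description. Counts were assigned to genes of the reference, which does not give alleles of the strain in the Dok3 labels. Whether the reads came from these genes themselves was not tested. In the annotation Ighv1-16 and Ighv8-13 have 1 exon, whereas Ighv7-2 and Ighv8-11 have 2. Ighv7-2 and Ighv7-3 of the same subgroup are shown over 300 bases of the GRCm38 V exon, aligned at the conserved cysteine codon, with the 15 differences in capitals (95% identity), and Ighv1-16 with Ighv1-18 over 294 bases, with 52 differences (82.3% identity).
Ighv7-2: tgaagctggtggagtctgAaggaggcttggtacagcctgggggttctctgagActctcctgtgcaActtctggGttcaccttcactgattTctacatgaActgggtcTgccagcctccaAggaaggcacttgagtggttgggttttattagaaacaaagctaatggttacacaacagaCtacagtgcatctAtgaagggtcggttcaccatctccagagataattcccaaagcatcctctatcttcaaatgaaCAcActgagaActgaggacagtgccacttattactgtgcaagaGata
Ighv7-3: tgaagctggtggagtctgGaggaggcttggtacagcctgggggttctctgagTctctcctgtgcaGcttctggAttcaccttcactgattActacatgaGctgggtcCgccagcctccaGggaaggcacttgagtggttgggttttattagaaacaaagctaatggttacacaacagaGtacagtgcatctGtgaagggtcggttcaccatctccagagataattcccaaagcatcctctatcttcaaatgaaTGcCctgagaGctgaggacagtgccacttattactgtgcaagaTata
Ighv1-16: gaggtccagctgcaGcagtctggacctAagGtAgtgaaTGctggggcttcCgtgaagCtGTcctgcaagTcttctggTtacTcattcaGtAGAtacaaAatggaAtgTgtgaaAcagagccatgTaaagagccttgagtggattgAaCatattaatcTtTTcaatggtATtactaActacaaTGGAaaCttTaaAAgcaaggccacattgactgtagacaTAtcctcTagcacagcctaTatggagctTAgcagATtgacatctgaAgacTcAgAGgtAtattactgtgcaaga
Ighv1-18: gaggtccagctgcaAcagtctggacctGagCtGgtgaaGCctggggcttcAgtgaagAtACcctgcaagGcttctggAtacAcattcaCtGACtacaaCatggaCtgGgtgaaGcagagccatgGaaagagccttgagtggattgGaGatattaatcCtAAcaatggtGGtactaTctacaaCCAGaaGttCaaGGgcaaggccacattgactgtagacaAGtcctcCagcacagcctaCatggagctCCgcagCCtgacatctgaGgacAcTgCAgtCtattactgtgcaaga

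Ighv7-2 (chr12:113912025-113912483) held 313 counts in 27 of 47 Dok3-line libraries and 0 in the 113 C57BL6/J libraries. Against the floor of 3 counts over the C57BL6/J libraries, its share of V counts was 91.2-fold higher in the Dok3 line. The counting interval of the ratio began at 73.7. Ighv7-3, its near copy, was used in every line. Ighv8-13 (chr12:115765333-115765635) held 60 counts in 7 Dok3-line libraries and 0 in the others, and 43 of those counts lay in Dok3 knockout replicate 19. Against the same floor its share was 17.5-fold higher, with a counting interval that began at 13.8.

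Ighv1-16 (chr12:114665872-114666165) held 1427 counts in 33 of the 47 Dok3-line libraries and 7 counts in 4 of the 113 others. Its share of V counts was 0.429% against 0.00241%, a ratio of 178 (counting interval 86.3 to 444). Ighv8-11 (chr12:115567149-115567591) held 657 counts in 35 libraries against 11 in 10, a ratio of 52.2 (29.0 to 105). Ighv3-1, used at a higher level, differed by less, with 3585 against 280 counts and a ratio of 11.2 (9.91 to 12.7). The 4 segments lie at 482.2, 1236, 2137 and 2336 kb from the first J segment, for Ighv7-2, Ighv1-16, Ighv8-11 and Ighv8-13 in that order, so they are spread over the locus.

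The opposite pattern was seen for Igkv7-33, with 663 counts in the C57BL6/J libraries and 15 in the Dok3 line, but 639 of the 663 lay in the Gpsm3 line. Of these, 628 came from 1 Gpsm3 knockout library, and 17 of the 113 libraries had a count. Lower shares in the Dok3 line were more widely spread for Ighv6-4, with 203 counts in 90 of 113 C57BL6/J libraries and 21 in 17 of 47 others. Its ratio of shares was 0.0904 (counting interval 0.0548 to 0.142), and that of Ighv6-5 was 0.182 (0.107 to 0.297). Both were named after their values were seen, and whether their reads came from rearranged segments was not tested. No member was at 0 in every library of a line and above 0 in every library of another.

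Counts on the 4 segments were not found in all Dok3-line mice. Of the 39 Dok3-line libraries with at least 1000 V counts, 28 held 3 or more counts on them together, at 0.282% to 2.82% of V counts with a median of 0.864%. The other 11 held 2 counts or fewer, at 0.104% or less. The 11 were not the shallow libraries, with 1929 to 23402 V counts against 1003 to 19954 for the 28, and 5 of them were knockout and 6 wild type. In Dok3 wild type replicate 9 there was 1 such count of 23402, while Dok3 wild type replicate 5 had 232 of 8236.

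No Dok3-line library with at least 1000 V counts lay between 0.104% and 0.282%. Each of the 28 held at least 2 of the 4 segments, and Dok3 knockout replicate 4, for example, had 68 counts on Ighv1-16, 29 on Ighv7-2 and 84 on Ighv8-11. Among the 113 C57BL6/J libraries the highest sum was 4 counts, in a library of 51678 V counts. Without the libraries whose sex markers went against the label, 24 of 34 held 3 or more counts and 10 held 2 or fewer. The labels do not give the litter of a mouse, and the source of the difference was not tested.

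**Figure D5:**
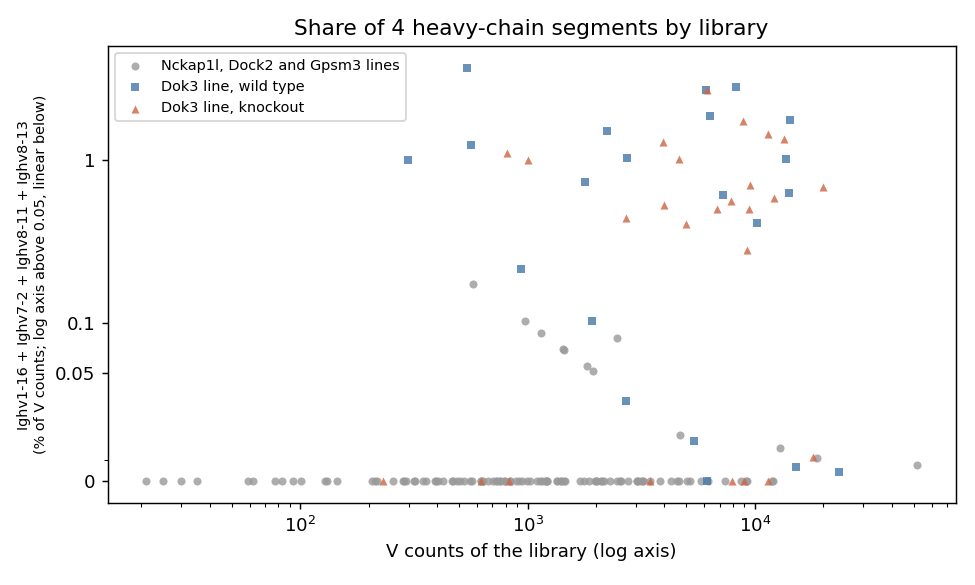
Summed share of Ighv1-16, Ighv7-2, Ighv8-11 and Ighv8-13 (y axis, percent of V counts, on a log axis above 0.05 and linear below) against the V counts of each library (x axis, log axis), with grey circles for the Nckap1l, Dock2 and Gpsm3 lines, blue squares for Dok3 wild type and orange triangles for Dok3 knockout. Above 1000 V counts the Dok3-line libraries fall at 0.282% or more or at 0.104% or less, and both genotypes are in both ranges.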

How the data were processed

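Total RNA of the distal colon was ribo-depleted, made into stranded libraries and sequenced as single 100-base reads. The authors aligned to mm10 with STAR and used featureCounts per gene. Their deposited files hold the raw counts of 39179 Ensembl genes in each of 160 samples. Versions, strand and multiple-match settings are not given in the sources used here. Names and positions came from GENCODE M21 (GRCm38), which matched 96.2% of genes and 99.67% of counts. The founders, treatment and housing are from the study's methods.

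Samples were grouped by line and genotype from the labels, and nothing beyond the labels says that libraries of a group are independent of litter or cage. After TMM normalization and filterByExpr, all genes entered the quasi-likelihood test of edgeR 4.0.16 (R 4.3.3), with a sex term where both sexes were present and Benjamini-Hochberg adjustment at 0.05. DESeq2 1.42.0, limma-voom (limma 3.58.1), no filter, RLE, the V total as library size, covariates and left-out libraries were alternatives. The scripts were tested on simulated data. Usage, shares and diversity were computed in Python 3.11.15 and carry no test, as scores over members. Thinned values are means of 20 draws.

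Named segments were the 5 Ighv and 5 Igkv of highest mean usage, every Iglv, members past the threshold or otherwise the 3 of smallest p in each direction, and in the comparison of lines the 5 of largest difference each way with a mean of at least 1 CPM. The members and lists were chosen with earlier results of these data known.

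At the total counts of 4344988 to 19993833, 3 counts correspond to 0.691 to 0.15 CPM.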

Additional observations from a re-analysis of the deposited data

How the results depend on the processing

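Of the fold changes of named segments, 5 values changed direction under an alternative: the Gpsm3 log2 fold changes of Igkv5-48 and Ighv7-3 (0.78 and 0.87 by DESeq2, 0.03 and 0.03 by limma-voom) and the Dok3 one of Ighv4-1 (0.13 by limma-voom), and for them the cause was not tested. The counts of calls depended on the tool. DESeq2 called 21 genes and 3 members for Nckap1l, 69 genes and 15 members for Dock2, 4 genes for Gpsm3 and 3 genes for Dok3, while limma-voom called 0 genes and 0 members in the Dock2 line. With no filter beyond 1 count, where more genes are tested, 27, 31, 32 and 15 genes were called in the Nckap1l, Dock2, Gpsm3 and Dok3 lines, with 8 members in the Dock2 line and 1 in the Gpsm3 line, and 123 members in the comparison of the Dok3 and Gpsm3 lines. With the V total as library size, which shifts every other gene, 17894 genes and 1 member were called for Nckap1l, 0 members for Dock2, 131 genes for Gpsm3, and 14520 genes and 11 members between the Dok3 and Gpsm3 lines. The last comparison gave 727 genes and 25 members with Dock2-line males as the reference and 696 genes and 31 members with the nearest sample numbers. In the Gpsm3 line 2 genes were called without the library of most V counts and 2 without the libraries against their Gpsm3 label, both added after seeing the data. The effective number by the inverse Simpson index was 41.6, 57.8, 30.3, 24.5, 31.9, 26.8, 39.5 and 39.5 for Nckap1l wild type, Nckap1l knockout, and in the same order the Dock2, Gpsm3 and Dok3 lines. The Shannon effective number at 100 V counts, added after seeing the data, was 42.1, 33.9, 34.7, 39.6 and 38.2 for Nckap1l wild type, Nckap1l knockout, Dock2 wild type, Dok3 wild type and Dok3 knockout, and the other 3 groups moved by less than 1 SD. In Nckap1l knockout the Shannon number was 73.1 over members of at least 1000 counts, 75.4 at 500 V counts and 33.5 without thinning, the last over libraries of few V counts as well. Among values of groups and counts, 269 kept their direction and side of the threshold or moved by less than the spread, and 43 did not. Among those of single segments 199 did, while 9 were weaker, 2 were stronger and the 5 given above changed direction. The low V level limits the Nckap1l line most, where 190 members did not pass the filter. No paired analysis was possible because the animals are numbered singly and no number is shared between groups.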
